A study of Mus musculus with 8 samples.

Results

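The 36 genes described here encode the proteins that copy DNA in S phase. They were chosen by gene symbol from known replication factors, with earlier results of these data known. All 36 were found among the 33641 gene symbols of the deposited expression files, and all 36 passed the filter on low values, 3 of them (Exo1, Cdc6 and Mcm10) with help from the endFoxf1+/- libraries, since not all of their controls reached its minimum. Expression was measured by RNA-seq in CD45-CD31+ cells, the endothelial gate, sorted by FACS from microdissected lung tumors that grew from injected Lewis lung carcinoma (LLC) cells, a mouse lung cancer line, and collected at day 21. The series has 4 control libraries (C1 to C4) and 4 endFoxf1+/- libraries (H1 to H4), numbered as their labels are ordered.

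The endFoxf1+/- mice carried Pdgfb-iCreER, a tamoxifen-inducible Cre recombinase driven by a promoter active in endothelial cells, and 1 floxed and 1 intact allele of Foxf1 on a C57Bl/6 background. Per the study's methods, 3 mg of tamoxifen was given by oral gavage to mice aged 6 to 8 weeks, and the mice given tumor cells are described as treated with tamoxifen. The labels say only "control" for the other group, which the study describes in one place as littermates with a single transgene, either the floxed Foxf1 allele or the Pdgfb-driven Cre, and in another as wild-type C57Bl/6 mice. Which of these each control library came from is not given in the labels. Both groups received the same mCherry-labeled LLC cells in the left lung. The deletion covers the cells in which the Pdgfb promoter is active and leaves the second allele intact.

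Replication starts when the origin recognition complex with CDC6 and CDT1 loads the MCM helicase onto DNA in G1. CDC45 and the GINS complex turn this ring into an active helicase at the start of S phase, polymerase alpha with primase begins each strand, and polymerases delta and epsilon extend it on the PCNA clamp, which the RFC complex loads. FEN1 and LIG1 finish the lagging strand, ribonucleotide reductase and thymidylate synthase supply nucleotides, and CAF-1 places histones on the new DNA. Most of these genes are transcribed under the control of E2F factors at the border of G1 and S, and their transcripts are widely used as a readout of cycling cells. Endothelial cells of the adult lung are largely quiescent, and tumor vessels hold a dividing fraction.

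Values are TPM, a measure of transcript abundance normalized for gene length and library total. Differences between the groups were fitted with limma on log2(TPM + 1) over the 14964 genes that reached a TPM of 1 in 4 or more libraries, with Benjamini-Hochberg adjustment over all of them, and are given as log2 fold change, endFoxf1+/- minus control, with its standard error (SE). For single genes an exact two-sided permutation test was run over the 70 assignments of 4 libraries to a group, for which 0.0286 is the smallest p possible. Such p-values compare the difference between the groups with the spread between these libraries. No read counts were used and TPM keeps no trace of depth, so depth is unknown and the precision rests on the 4 libraries of each group.

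Foxf1, the deleted gene, was measured at 213 to 331 TPM in the controls and at 177, 203, 14.04 and 105 TPM in H1 to H4. All 4 endFoxf1+/- libraries were below all controls. H3 and H4 stood apart. The level of 20 endothelial markers, as the geometric mean of TPM + 1 relative to control, was 86.4% to 108% in the controls, 109% in H1, 113% in H2, 6.07% in H3 and 59.1% in H4. In H3, Pecam1 (CD31) was at 77.5 TPM against 1061 to 1505 TPM in the controls, and Ptprc (CD45) at 91.2 TPM against 2.94 to 9.13 TPM, so this library goes against the gate it was sorted by. The median correlation with the other libraries was 0.795 for H3 and 0.892 for H4, and 0.958 to 0.968 for the rest. The main counts and the fold changes of most genes given in every library are therefore also stated without H3, and some also without H4. Fewer cells of a type and less RNA per cell cannot be told apart in such bulk libraries.

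As a group, the replication genes were at higher levels in 3 of the 4 endFoxf1+/- libraries. Their geometric mean of TPM + 1 was 112%, 92.7%, 97.3% and 99.3% of control in C1 to C4 and 127%, 127%, 185% and 95.7% in H1 to H4. H1, H2 and H3 lay above all controls, while H4 lay within the range of the controls. H3 had the highest value of the 8 libraries for 26 of the 36 genes and H4 the lowest for 15. In H1, 22 genes were above all 4 controls and 0 were below all of them. H2 had 24 above and 1 below, H3 had 29 above and 2 below, and H4 had 11 above and 15 below. For 13 genes H3 lay above all controls while H4 lay below all controls, so the group mean often averaged libraries that differed in opposite directions. Shares of all genes were not counted for single libraries, so these counts alone do not set the replication genes apart from other genes. With H1 and H2 as the only endFoxf1+/- libraries, 70.7% of all genes had a log2 fold change above 0. Both libraries lay above all controls for 20.2% of all genes and for 18 of the 36.

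**Figure D1:**
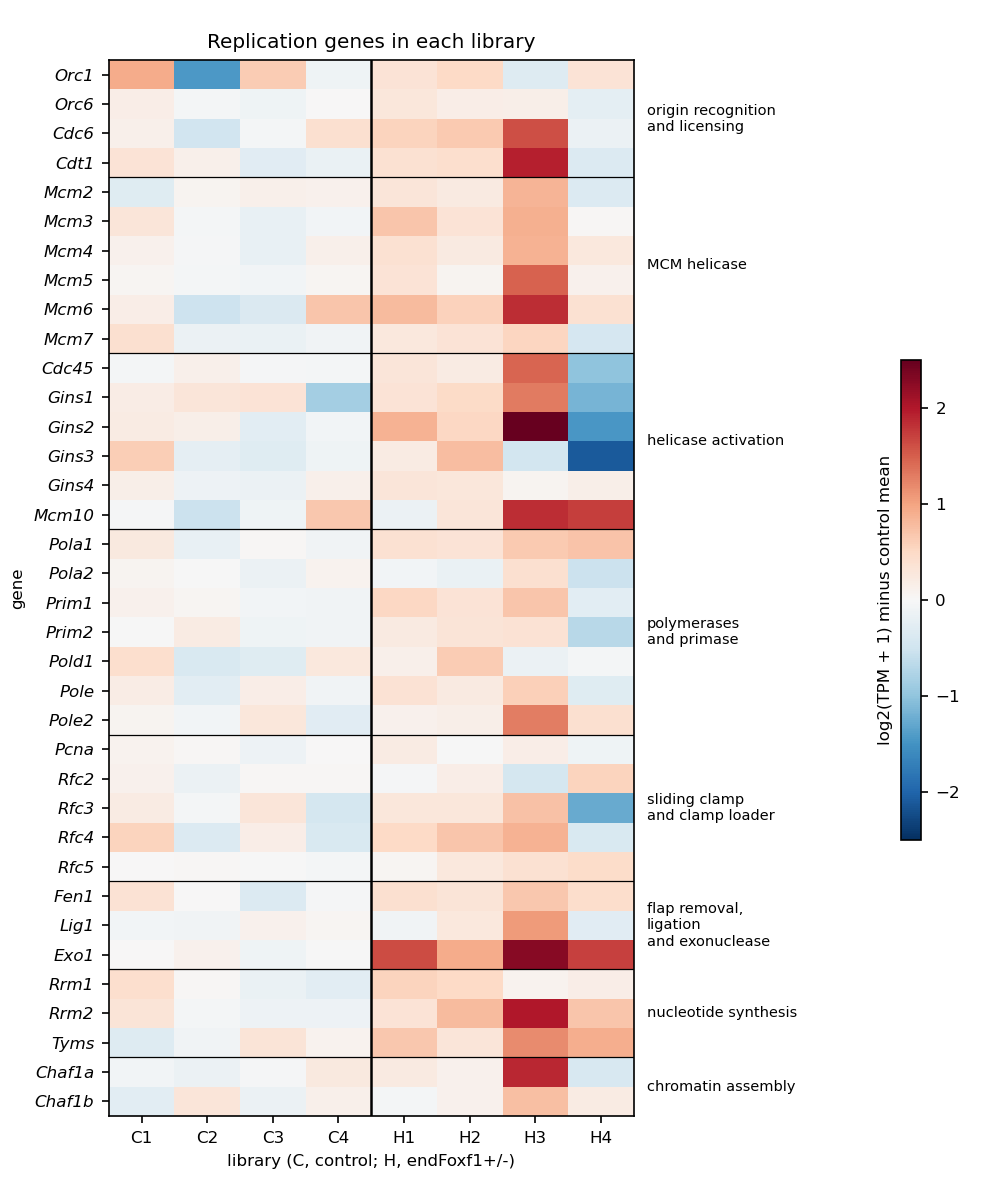
Heat map of log2(TPM + 1) minus the control mean for the 36 replication genes (rows, grouped by role) in the 4 control (C1 to C4) and 4 endFoxf1+/- (H1 to H4) libraries, red for higher and blue for lower. H1 and H2 are mostly pale red, H3 is the strongest red for 26 genes, and H4 is the lowest library for 15 genes.

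No gene of the genome passed an adjusted p of 0.05 in the limma fit (0.0% of 14964), and the adjusted p of the 36 genes ran from 0.790 to 0.997. At an unadjusted p under 0.05, 836 genes of the genome and 4 of the 36 were called. These 4 (Exo1, Rrm2, Tyms and Mcm6) were all higher, against 2.82% of all genes called higher, and 0 were lower, against 2.77%. The 4 values of each group did not overlap for 6 of the 36, all higher in endFoxf1+/- (Mcm4, Mcm5, Pola1, Rfc5, Exo1 and Rrm2), against 2.73% of all genes. For 0 of the 36 were they lower without overlap, against 2.31%. The log2 fold change was above 0 for 34 of 36 replication genes and for 31.96% of all genes tested, with medians of 0.31 and -0.17. The 95% interval included 0 for 32 of the 36 genes and a difference of 1 on the log2 scale for 18 of them.

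The counts depended on H3 and H4. Without H3, 27 of 36 log2 fold changes were above 0, against 51.7% of all genes, with a median of 0.21 beside 0.01 over all genes. The 9 below 0 were Cdc45, Gins1, Gins2, Gins3, Pola2, Prim2, Rfc3, Lig1 and Chaf1a. In that fit 4 replication genes were called higher at an unadjusted p under 0.05, against 4.83% of all genes, and 6 did not overlap, against 6.5%. Without H4, 9 were called higher, against 3.59%, and 15 did not overlap, against 5.71%. Without both, 35 of 36 were above 0, against 70.7% of all genes, with a median of 0.30 beside 0.14 over all genes, 6 were called higher, against 9.87%, and 18 did not overlap, against 20.2%, a share of all genes that is larger because only H1 and H2 are left. Those 18 were Orc6, Cdc6, Cdt1, Mcm2, Mcm3, Mcm4, Mcm5, Cdc45, Gins2, Gins4, Pola1, Prim1, Prim2, Pole, Rfc5, Exo1, Rrm1 and Rrm2. Leaving out C1, C2, C3, C4, H1 or H2 left 2, 2, 2, 3, 4 and 4 called higher, against 2.06%, 1.51%, 1.72%, 1.58%, 2.97% and 3.62% of all genes. In the same fits 9, 6, 8, 7, 6 and 8 did not overlap, against 4.43%, 3.28%, 3.37%, 3.27%, 3.35% and 4.45%. Relative to endothelial markers 1 (Exo1) was called higher, against 1.83%. With limma array weights, which set the weight of H3 to 0.0643 and of H4 to 0.178, 16 were called higher, against 15.2%.

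**Figure D2:**
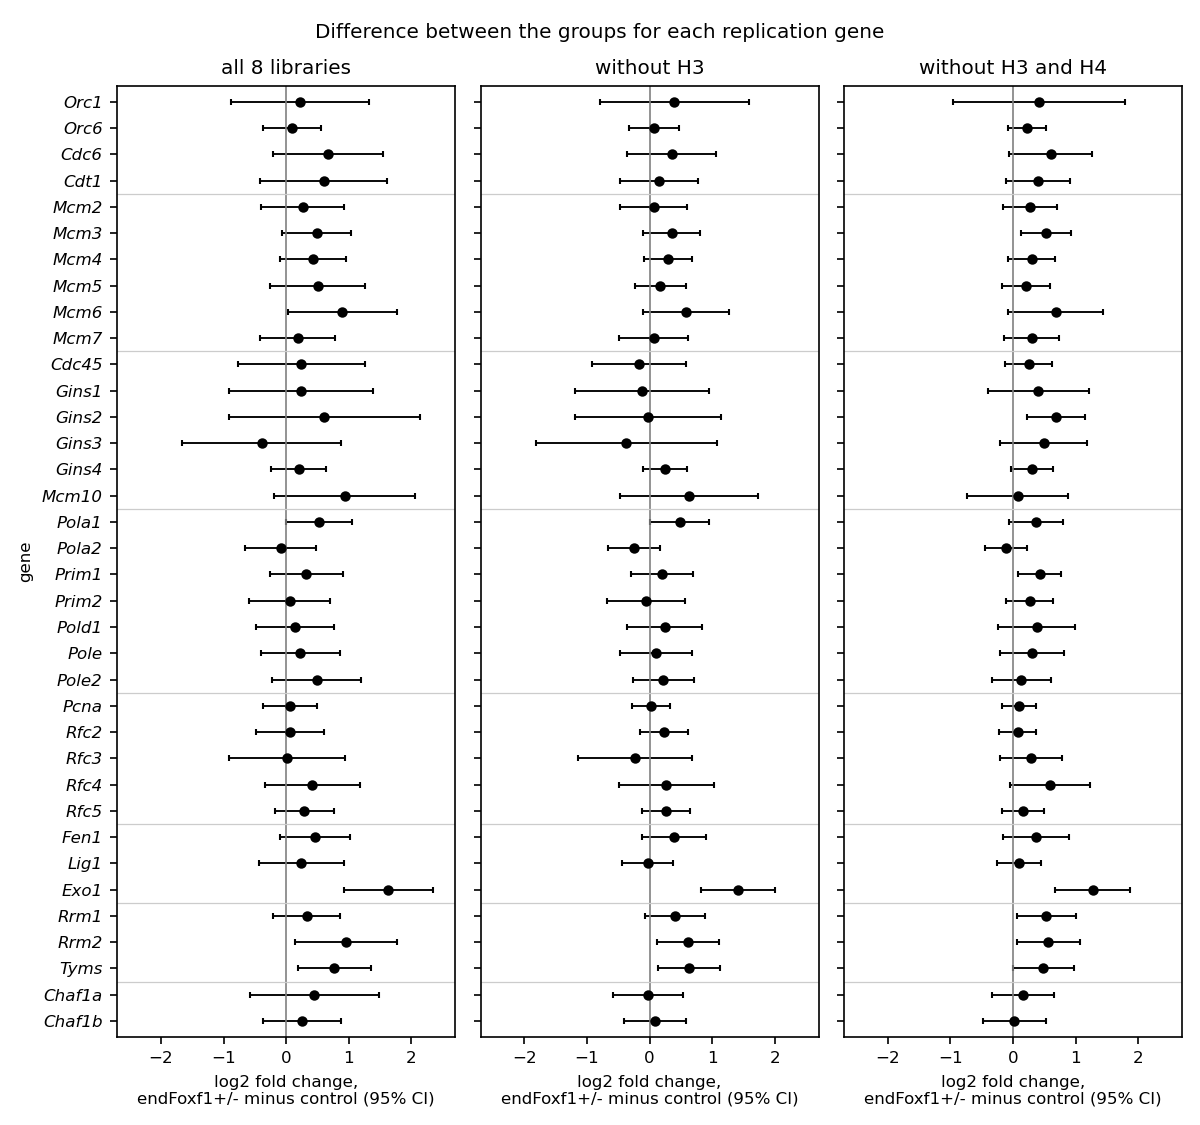
Log2 fold change (endFoxf1+/- minus control, limma on log2(TPM + 1)) with its 95% confidence interval for each of the 36 replication genes, from all 8 libraries, without H3 and without H3 and H4. The interval of Exo1 lies above 0 in all 3 panels, and with all 8 libraries 32 of the 36 intervals include 0.

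Promoter sequences are shown for genes that were called or did not overlap and whose window held a match before the start, and for Gins3, the lowest fold change of the group, since the letters that E2F factors are known to bind are the feature this group is best known to share. RefSeq promoter windows on GRCm38.p6, from 250 bases before to 50 bases after a start, were matched for 28 of the 36 genes. The E2F-like letters TTTCCCGC, TTTGGCGC, TTTCGCGC and TTTGCCGC were searched on both strands. They were found in 13 of 32 windows of the replication genes (40.6%) and in 2.26% of the 32851 windows of all genes. They were also found in 23.5% of the windows of other replication genes and in 26.5% of those of G1/S regulators, and the difference from these lists was not tested. The CCAAT box, CCAAT on either strand, was found in 56.2% of the windows of the replication genes and in 37.4% of all. The stretches below lie before the start, read 5′ to 3′ on the strand of the gene, with the E2F-like letters in capitals and, for Rrm2 alone, the CCAAT box. A CCAAT box on the opposite strand within the proximal stretch of Mcm6 is left in lower case. Mcm5 (chr8:75109347-75109376, plus strand) and Mcm6 (chr1:128359795-128359824, minus strand) each hold a pair of E2F-like matches that overlap on opposite strands, and Mcm6 holds a further match nearer its start (chr1:128359734-128359763). Pola1 (chrX:93632275-93632304, minus strand) holds 1 match, and so does Gins3 (chr8:95633507-95633536, plus strand). Rrm2 (chr12:24708191-24708220, plus strand) has none of the E2F-like letters in its window and holds 1 CCAAT box. CCAAT was also in the windows of Mcm5 (3 matches), Mcm6 (2), Gins3 (2) and Pola1 (1).
Mcm5: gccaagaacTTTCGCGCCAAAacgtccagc
Mcm6, distal: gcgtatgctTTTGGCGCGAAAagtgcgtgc
Mcm6, proximal: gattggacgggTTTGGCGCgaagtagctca
Pola1: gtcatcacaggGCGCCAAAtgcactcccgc
Gins3: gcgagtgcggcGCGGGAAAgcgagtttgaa
Rrm2: gggtcagcggcgtCCAATgggaggcgaggc

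A match is a description of the letters and not of a bound site. Of the 6 genes whose groups did not overlap, Mcm5 and Pola1 held E2F-like letters, Rfc5 and Rrm2 did not, and no window was matched for Mcm4 and Exo1. Genes of mitosis and G2/M were also searched for these letters, and their difference from the replication genes was not tested. E2F-like letters were found in 3.33% of their 30 windows and a CCAAT box in 76.7%.

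Levels within the group spanned a wide range in the controls. The control mean ran from 0.896 TPM for Exo1 to 129 TPM for Pcna, with a median of 9.84 TPM over the 36 genes. Pcna made up 19.6% of the summed control mean of the 36 genes, and the top 5 (Pcna, Mcm3, Rfc2, Orc6 and Pold1) made up 47.4%. Control means were over 20 TPM for 11 genes and under 2 TPM for 4 (Cdc6, Mcm10, Exo1 and Chaf1a). The spread between libraries was larger in the endFoxf1+/- group for 30 of 36 genes, with a median coefficient of variation of 31.4% against 18.6% in the controls. In the controls it was smallest for Rfc5 (2.32%) and largest for Orc1 (64.9%).

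**Figure D3:**
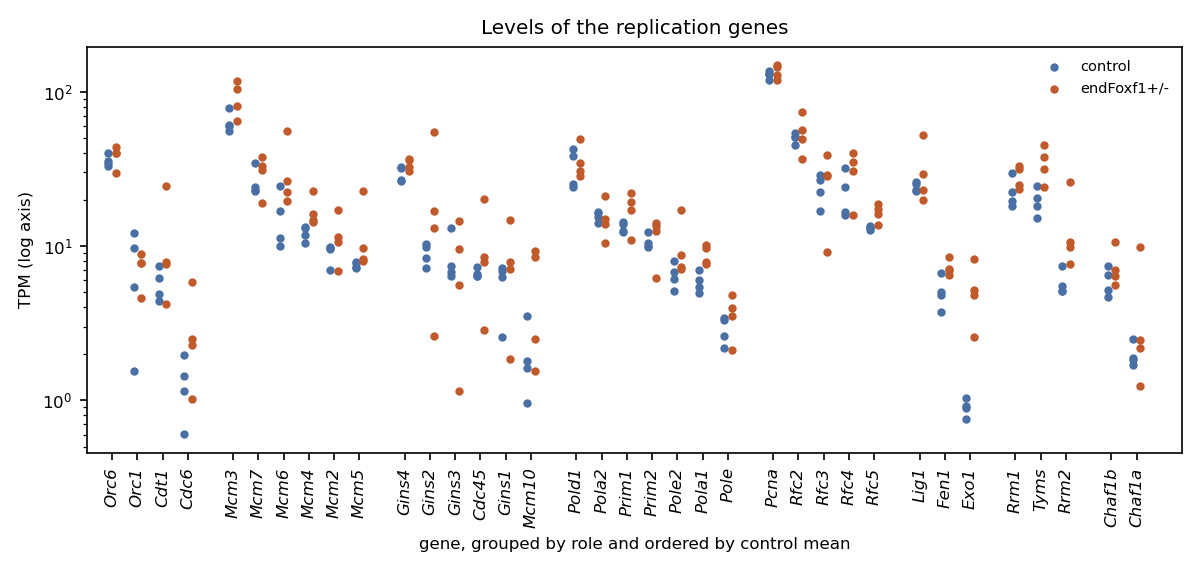
TPM of each replication gene in the 4 control libraries (blue) and the 4 endFoxf1+/- libraries (orange) on a log axis, grouped by role and ordered by control mean within a role. Pcna is the highest gene at 129 TPM in the control mean and Exo1 the lowest at 0.896 TPM, with all 4 endFoxf1+/- values of Exo1 above its controls.

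Among the licensing factors, which mark and load origins, the 4 log2 fold changes were all above 0 and none was called. Orc6, a subunit of the origin recognition complex and the highest of the 4, was at 39.9, 34.5, 32.8 and 35.7 TPM in C1 to C4 and at 43.7, 40.1, 39.8 and 29.8 TPM in H1 to H4. H1 and H2 were just above all controls and H4 was below them, with a log2 fold change of 0.09 (SE 0.21) and of 0.07 without H3. Cdc6 and Cdt1, the loaders of the MCM ring, were high in H3, at 5.83 and 24.3 TPM, while their control ranges were 0.602 to 1.95 TPM and 4.41 to 7.37 TPM. In H1 and H2 both genes were above all controls by a small margin, and in H4 Cdc6 was within the control range at 1.02 TPM and Cdt1 was below it at 4.21 TPM. Orc1, the large ATPase subunit, scattered most among the controls, from 1.55 to 12.1 TPM, and its endFoxf1+/- values of 4.58 to 8.81 TPM fell inside that range.

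All 6 subunits of the MCM helicase, the motor that unwinds DNA, had a log2 fold change above 0, also without H3, and all 6 were highest in H3. Mcm4 was at 13.03, 11.8, 10.5 and 13.3 TPM in C1 to C4 and at 16.1, 14.3, 22.9 and 14.7 TPM in H1 to H4. The groups did not overlap, with a log2 fold change of 0.43 (SE 0.23) and an exact permutation p of 0.0286. Without H3 the log2 fold change was 0.29, with an exact permutation p of 0.0571. Mcm5 was at 7.88, 7.29, 7.16 and 7.81 TPM in the controls and at 9.74, 7.99, 22.8 and 8.21 TPM in H1 to H4. These groups did not overlap either, but H2 and H4 were only slightly above the highest control, and the log2 fold change of 0.50 (SE 0.34) was 0.17 without H3.

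Mcm6 had the largest difference of the helicase, with 16.8, 10.03, 11.3 and 24.5 TPM in C1 to C4 and 26.3, 22.3, 55.6 and 19.4 TPM in H1 to H4. H2 and H4 lay within the control range, the log2 fold change was 0.90 (SE 0.39, unadjusted limma p = 0.0451, exact permutation p = 0.0857), and it was 0.58 without H3 with an unadjusted limma p of 0.0894. Mcm3 was the highest subunit in all 8 libraries, at 78.8, 60.9, 56.0 and 60.1 TPM in the controls and 103.6, 80.8, 118.1 and 64.3 TPM in H1 to H4. Here H1, H2 and H3 exceeded all controls and H4 did not, with a log2 fold change of 0.49 (SE 0.25) and of 0.35 without H3. Mcm2 and Mcm7 had fold changes of 0.26 and 0.18, or 0.065 and 0.064 without H3, and were each lowest in H4.

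The factors that switch the helicase on diverged most between H3 and H4. Gins2, a GINS subunit, was at 7.15 to 10.3 TPM in the controls, at 16.9 and 12.998 TPM in H1 and H2, at 54.6 TPM in H3 and at 2.60 TPM in H4. It was the most variable gene of the endFoxf1+/- group, with a coefficient of variation of 104%, and H1 to H3 exceeded all controls while H4 was below all of them. Of its 4097 exonic bases in GENCODE, 2758 overlap Gse1 on the opposite strand, so reads of the 2 genes may not be told apart where strand was not used. Cdc45 showed the same order among H1 to H4, with 6.40 to 7.35 TPM in the controls and 8.47, 7.83, 20.2 and 2.84 TPM in H1 to H4. Gins1 reached 14.8 TPM in H3 and was at 1.85 TPM in H4. The log2 fold changes of Gins2, Cdc45 and Gins1 were 0.61, 0.24 and 0.24 with all libraries and -0.022, -0.17 and -0.12 without H3. Without H4 they were 1.29, 0.66 and 0.71, and without both 0.69, 0.25 and 0.41.

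Gins4 was the steadiest gene of the endFoxf1+/- group, with 32.7, 26.7, 26.4 and 32.025 TPM in the controls and 36.7, 36.1, 30.6 and 32.4 TPM in H1 to H4. H1 and H2 were above all controls and H3 and H4 were among them, with a log2 fold change of 0.20 (SE 0.20) and of 0.25 without H3. Gins3 had the lowest fold change of the 36 genes, at -0.39 (SE 0.56). It was at 14.6 TPM in H2 and 1.14 TPM in H4 against 6.43 to 13.1 TPM in the controls, and without H3 and H4 the fold change was 0.49. Gins4 was the highest GINS subunit in 7 libraries and Gins2 in H3. Mcm10, which helps to activate the helicase, was at 9.22 TPM in H3 and 8.44 TPM in H4, both above the control range of 0.958 to 3.50 TPM, while H1 and H2 were inside it.

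Pola1, the catalytic subunit of polymerase alpha, was the polymerase gene with the most even difference. It was at 7.03, 4.97, 5.98 and 5.44 TPM in C1 to C4 and at 7.89, 7.65, 9.72 and 10.2 TPM in H1 to H4. All 4 endFoxf1+/- libraries lay above all controls, and H3 and H4 were the highest of the 8. Its log2 fold change was 0.52 (SE 0.24, unadjusted limma p = 0.0517, exact permutation p = 0.0286). Without H3 it was 0.48, with an unadjusted limma p of 0.0470 and an exact permutation p of 0.0571. Without H3 and H4 it was 0.36, with an unadjusted limma p of 0.0893. Pola2, the B subunit of the same polymerase, did not follow it, with 13.997 to 16.5 TPM in the controls, 14.9, 13.9, 21.0 and 10.4 TPM in H1 to H4 and a log2 fold change of -0.09 (SE 0.25) that turned positive without H4, under quantile normalization and median ratio scaling, and relative to endothelial markers. In the order of the 4 subunits of polymerase alpha-primase, Pola2 was highest in all 4 controls and Prim1, the catalytic primase subunit, in all 4 endFoxf1+/- libraries.

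Prim1 was at 12.4 to 14.2 TPM in the controls, at 19.2, 17.0 and 22.1 TPM in H1, H2 and H3, and at 10.9 TPM in H4. Prim2, the large primase subunit, was at 6.16 TPM in H4 against 9.83 TPM or more in all other libraries. Pold1, the catalytic subunit of polymerase delta, was at 42.6, 24.2, 25.3 and 38.4 TPM in the controls and 34.7, 49.6, 28.3 and 30.7 TPM in H1 to H4. Only H2 of these was above the controls, and the log2 fold change was 0.14 (SE 0.28) and 0.24 without H3. Pole and Pole2, subunits of polymerase epsilon, had fold changes of 0.23 and 0.49, with the highest value of each in H3 (4.84 and 17.1 TPM). Without H3 these fold changes were 0.10 and 0.22.

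Pcna, the sliding clamp, was the highest gene of the group in all 8 libraries. It was at 136, 131, 119 and 130 TPM in C1 to C4 and at 148, 128, 145 and 119 TPM in H1 to H4. The groups interleave, with a log2 fold change of 0.06 (SE 0.19) and a 95% interval from -0.37 to 0.49, and of 0.024 without H3. Its share of the summed TPM of the 36 genes was 18.4% to 21.3% in the controls and 17.9%, 16.0%, 13.7% and 18.3% in H1 to H4, so all 4 were below the controls.

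Rfc5, a small subunit of the clamp loader, was at 13.4, 13.5, 13.2 and 12.8 TPM in the controls and at 13.7, 16.1, 17.5 and 18.6 TPM in H1 to H4. The groups did not overlap, but H1 was only slightly above the highest control, and the log2 fold change was 0.29 (SE 0.21, exact permutation p = 0.0286) and 0.26 without H3. Rfc5 was highest in H4 and H3, and without both the log2 fold change was 0.16. Its exons overlap those of Wsb2 on the opposite strand over 499 bases. Rfc2, Rfc3 and Rfc4 had fold changes of 0.06, 0.01 and 0.42, and of 0.23, -0.23 and 0.26 without H3. In H4 Rfc2 was at its highest, 74.2 TPM, and Rfc3 at its lowest, 9.10 TPM, and in H3 the order was the other way, with Rfc2 at its lowest (36.8 TPM) and Rfc3 at its highest (39.1 TPM).

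Exo1, a 5′ to 3′ exonuclease of mismatch repair and end resection, had the highest log2 fold change of the 36 genes. Only 1 of its controls reached a TPM of 1, so it passed the filter through the endFoxf1+/- libraries in which it was high, and a gene that passes in this way tends to differ. It was at 0.917, 1.03, 0.752 and 0.886 TPM in C1 to C4 and at 4.84, 2.58, 8.20 and 5.18 TPM in H1 to H4. Every endFoxf1+/- library was above all controls, H2 the least, and the means were 0.896 ± 0.113 and 5.20 ± 2.31 TPM (SD, n = 4 each). On the log2(TPM + 1) scale the difference was 1.63 (SE 0.32, 95% interval 0.92 to 2.34), with an unadjusted limma p of 5.0e-04 and an adjusted limma p of 0.790, or 0.805 with no filter, and at a minimum TPM of 5 it was not tested. It was 1.42 without H3 and 1.27 without H3 and H4, and with a pseudocount of 0.1 or 5 it was 2.31 or 0.76. Exo1 is no part of the minimal replication machinery, and among the 36 genes its control level was the lowest.

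Lig1, the ligase that seals Okazaki fragments, was at 23.2, 22.6, 26.2 and 25.3 TPM in the controls and 22.9, 29.4, 52.1 and 19.7 TPM in H1 to H4. H2 and H3 were above the controls, H4 was below, and the log2 fold change of 0.24 (SE 0.30) was -0.03 without H3. Fen1, the flap endonuclease, was at 3.75 to 6.66 TPM in the controls and at 6.94, 6.49, 8.54 and 7.07 TPM in H1 to H4, so that H2 overlapped the highest control. Its log2 fold change was 0.46 (SE 0.25) and 0.39 without H3, and 2039 of its 2422 exonic bases overlap other genes on the opposite strand.

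The 3 nucleotide synthesis genes were higher in H4 than in the control mean as well, unlike the group as a whole. Rrm2, the S phase subunit of ribonucleotide reductase, was at 7.39, 5.52, 5.14 and 5.13 TPM in C1 to C4 and at 7.59, 10.6, 25.9 and 9.91 TPM in H1 to H4. The groups did not overlap, with H1 just above C1 and H3 far above the rest. The log2 fold change was 0.96 (SE 0.36, unadjusted limma p = 0.0263, exact permutation p = 0.0286). Without H3 it was 0.61, with an unadjusted limma p of 0.0216 and an exact permutation p of 0.0571.

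Tyms, thymidylate synthase, was at 15.2, 18.3, 24.6 and 20.6 TPM in the controls and at 31.4, 24.1, 45.3 and 37.5 TPM in H1 to H4. Only H2 fell within the control range. Its log2 fold change was 0.77 (SE 0.26, unadjusted limma p = 0.0154, exact permutation p = 0.0571) and 0.63 without H3. Rrm1, the large reductase subunit, had a fold change of 0.33 (SE 0.24) and did not follow Rrm2 in H3. The ratio of Rrm1 to Rrm2 TPM was 3.54 to 4.08 in the controls and 4.36, 2.99, 0.904 and 2.52 in H1 to H4, so Rrm2 exceeded Rrm1 in H3 only.

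**Figure D4:**
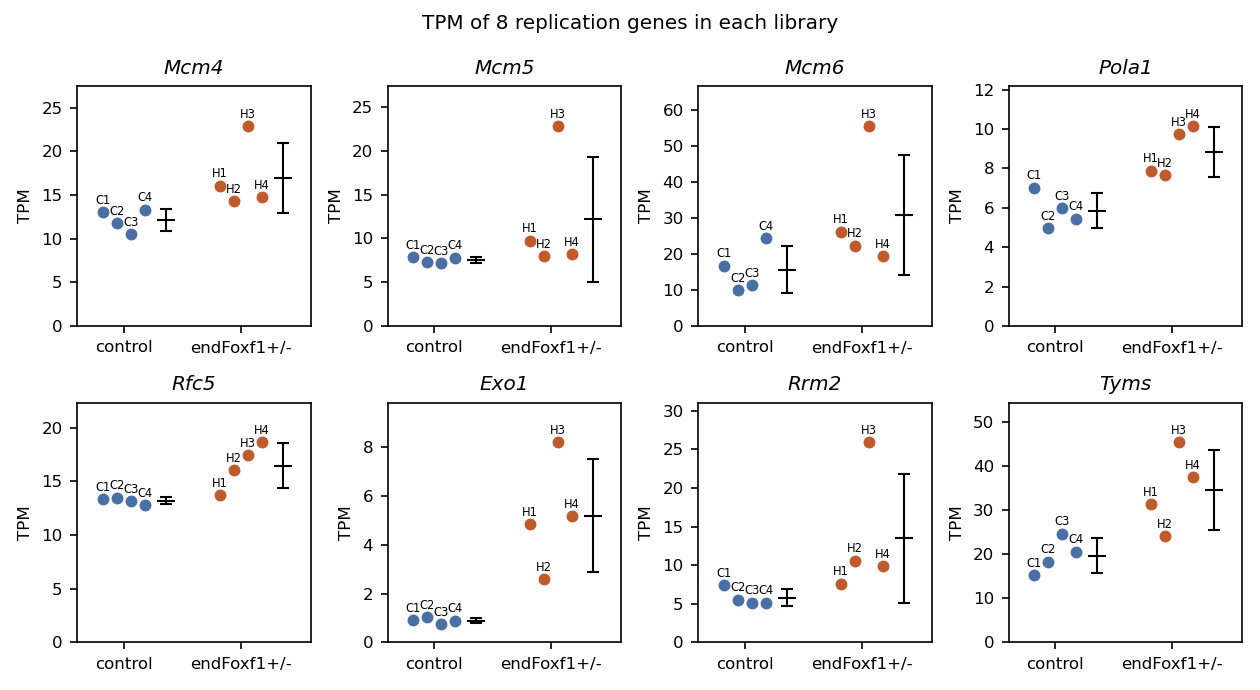
TPM of the 8 replication genes whose groups did not overlap or whose unadjusted limma p was under 0.05, with 1 point per library (control blue, endFoxf1+/- orange) and the mean ± SD of each group in black (n = 4). H3 is the highest point for 6 of the 8 genes, and H4 for Pola1 and Rfc5.

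The CAF-1 subunits Chaf1a and Chaf1b, histone chaperones of the fork, were the lowest role by level. Chaf1b was at 4.70, 7.42, 5.17 and 6.53 TPM in the controls and 5.61, 6.36, 10.7 and 6.95 TPM in H1 to H4. H3 alone was above the controls, with a log2 fold change of 0.25 (SE 0.28) and 0.08 without H3. Chaf1a was at 1.69 to 2.51 TPM in the controls and 9.87 TPM in H3, and the other 3 endFoxf1+/- libraries were at 2.46 TPM or less. Exons of Ubxn6 overlap 4648 of the 8854 exonic bases of Chaf1a.

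Other lists of the cell cycle place the 36 genes. Of 49 further replication genes, 48 were tested, 27 had a log2 fold change above 0 and the median was 0.06. Rnaseh2b, a subunit of the enzyme that removes ribonucleotides from DNA, was the only one called at an unadjusted p under 0.05 (0.78, SE 0.34), against 2.82% of all genes called higher, and the groups did not overlap for it and for Wdhd1 (0.41, SE 0.24), the AND-1 protein of the fork, against 2.73% of all genes. Without H3 these values were 0.78 and 0.45, without H4 0.48 and 0.49, and without both 0.32 and 0.60. Rnaseh2b was highest in H4, at 31.5 TPM. The geometric mean of this list was 120%, 118%, 111% and 77.1% of control in H1 to H4, so H3 stood out less than for the 36 genes.

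Mitosis and G2/M genes had a higher median log2 fold change than the replication genes, and the difference between the lists was not tested. All 32 had a log2 fold change above 0, the median was 0.86, 17 were called higher at an unadjusted p under 0.05, against 2.82% of all genes, and 9 did not overlap, against 2.73%. Their geometric mean was 94.5% to 103% of control in the controls and 176%, 166%, 367% and 99.7% in H1 to H4. On the log2 scale the mean of the 36 replication genes, relative to control, lay below that of the mitotic genes by 0.47 in H1, 0.38 in H2, 0.98 in H3 and 0.06 in H4. Without H3, 31 of the 32 were above 0, 11 were called higher, against 4.83% of all genes, and 9 did not overlap, against 6.5%.

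Mki67, which encodes the proliferation marker Ki-67, was at 14.04, 12.8, 12.8 and 16.5 TPM in C1 to C4 and at 27.4, 24.2, 56.6 and 19.4 TPM in H1 to H4. The groups did not overlap, H4 was nearest to the controls, and the log2 fold change was 1.02 (SE 0.33, exact permutation p = 0.0286) and 0.71 without H3. The study counted Ki-67-positive endothelial cells in sections of LLC tumors and reports no significant difference between the genotypes. It describes endothelial proliferation there as low. That count is of stained cells, while the values here are RNA of sorted libraries. Cdk1, the mitotic kinase, was at 13.4 to 14.6 TPM in the controls and at 28.5, 23.4, 62.1 and 13.7 TPM in H1 to H4, with H4 among the controls. The smallest unadjusted p of the list belonged to Plk1 (1.40, SE 0.36), Ube2c (1.58, SE 0.42), Mki67, Bub1 (1.18, SE 0.38) and Nuf2 (0.94, SE 0.31), whose groups did not overlap. Without H3 the log2 fold changes of Cdk1, Plk1, Ube2c, Bub1 and Nuf2 were 0.55, 1.14, 1.12, 0.92 and 0.69.

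Of 33 tested regulators of the passage from G1 to S, 21 had a log2 fold change above 0, 5 were called higher, against 2.82% of all genes, and 2 lower, against 2.77%. Values of the groups did not overlap for 3 higher genes, against 2.73% of all genes, and for 1 lower gene, against 2.31%. Cdkn2b, an inhibitor of CDK4 and CDK6, was at 28.2, 49.6, 78.2 and 44.8 TPM in the controls and at 15.4, 15.03, 1.66 and 4.19 TPM in H1 to H4. It was lower in all 4 endFoxf1+/- libraries than in all controls, with a log2 fold change of -2.63 (SE 0.60) and -2.12 without H3. Cdkn1c, an inhibitor of CDKs, had a log2 fold change of -1.28 (SE 0.45), with overlap, and of -0.93 without H3. Tfdp1, the partner of E2F factors (0.85, SE 0.29), Ccna2, the cyclin of S phase (0.92, SE 0.35), and E2f8, a repressive E2F (1.18, SE 0.47), were higher without overlap, and without H3 their values were 0.69, 0.61 and 0.68. E2f1, an activating E2F, was at 2.62 to 3.79 TPM in the controls and at 5.19, 4.42, 9.38 and 3.45 TPM in H1 to H4 (0.56, SE 0.31), and Ccne1, the cyclin that starts S phase, was at 0.251 to 2.87 TPM and 0.870 to 4.43 TPM (0.57, SE 0.43), with 0.32 for E2f1 and 0.35 for Ccne1 without H3.

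Markers of leukocytes and myeloid cells were, like the replication genes, higher in H1, H2 and H3 than in all controls, while markers of other cells were not ordered in this way. The 5 leukocyte markers were at 62.7% to 124% of control in the controls and at 178%, 185%, 1403% and 78.5% in H1 to H4, and the 12 myeloid markers at 61.4% to 124% and at 168%, 207%, 1114% and 128%. Fibroblast and pericyte markers were at 155%, 104%, 285% and 198% in H1 to H4, and T and B lymphocyte markers at 109%, 119%, 277% and 96.1%. Epithelial markers were at 82.4%, 34.5%, 38.6% and 210%, beside 70.5% to 226% in the controls, and erythroid and platelet markers at 63.2%, 72.9%, 30.8% and 55.8%. In H3 all 5 leukocyte markers and 11 of the 12 myeloid markers were above all controls, with Ly6g at 0 in every library, and all 20 endothelial markers were below all controls, as were 16 of them in H4. H3 thus had the highest leukocyte, myeloid, mesenchymal and lymphocyte levels, the lowest endothelial level and the highest level of the 36 replication genes. H1 and H2 were above all controls for the replication, leukocyte and myeloid lists while their endothelial level was slightly above that of the controls. The part of other cell types in the differences of the replication genes was not tested.

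**Figure D5:**
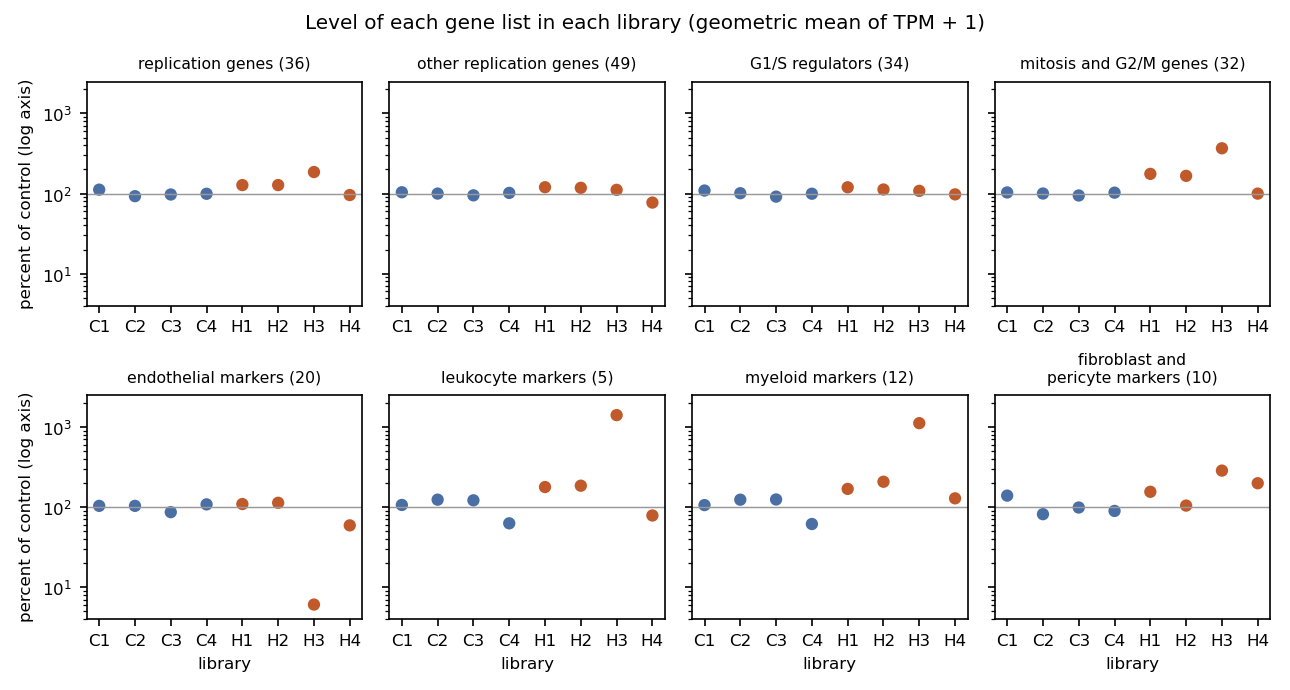
Level of 8 gene lists in each library, as the geometric mean of TPM + 1 in percent of the control mean on a log axis (control blue, endFoxf1+/- orange, number of genes in brackets, line at 100%). H3 is at 185% for the replication genes, 367% for the mitosis and G2/M genes, 6.07% for the endothelial markers and 1403% for the leukocyte markers.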

How the data were processed

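RNA-seq libraries were prepared by the authors with the Nextera XT kit from sorted cells, and per the labels the processing tools named are TopHat, Cufflinks, Subread and DESeq2 on GRCm38 (mm10), with no role or version given. The annotation and the use of strand are not given in the sources used here. The deposited values are TPM per gene symbol, which the authors had normalized for gene length and library total, and they sum to 1000000 in each of the 8 libraries. TPM is not a count, so the DESeq2 test of the study was not repeated and depth is unknown.

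Groups were taken from the genotype label. log2(TPM + 1) of the 14964 genes that reached a TPM of 1 in 4 or more of the 8 libraries was fitted with limma 3.58.1 (lmFit, eBayes with trend) in R 4.3.3, p-values adjusted by Benjamini-Hochberg and called under 0.05, and the fit was tested on simulated data. Identical values were found in 0 of 28 library pairs. Coordinates and exon overlaps come from GENCODE vM21 on GRCm38; exons of 13 of the 36 genes overlap another gene.

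The replication genes, the other lists and the markers were chosen with earlier results of these data known. Values of every library are given for members with an unadjusted p under 0.05 or without overlap and for the member of highest mean TPM in each role. Of the other lists, genes with an unadjusted p under 0.05 or without overlap are named, at most 5 a list by smallest p, with E2f1, Ccne1, Mki67 and Cdk1. Foxf1, Pecam1 and Ptprc checked the label and the sort. A list level is the mean of log2(TPM + 1), shown as percent of the control mean. Alternatives were other pseudocounts, filters, scalings, limma settings, and libraries left out.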

Additional observations from a re-analysis of the deposited data

Results flagged for a closer look

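In each group of 4 libraries, the highest or lowest value of a replication gene was compared with the nearest other value by Dixon's criterion at 95% on the log2(TPM + 1) scale, which chance passes in about 1 of 20 groups. Of 72 groups tested, 4 passed on that scale, and their values are given here in TPM. Mcm2 in control library C1 was at 7.04 TPM, with the other controls at 9.51 to 9.89 TPM. Mcm7 in control library C1 was at 34.5 TPM, with the others at 22.7 to 24.3 TPM. Gins1 in control library C4 was at 2.57 TPM, with the others at 6.30 to 7.15 TPM, and Prim2 in endFoxf1+/- library H4 was at 6.16 TPM, with the others at 12.5 to 14 TPM.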

How the results depend on the processing

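No paired analysis was possible because the labels give the groups no shared replicate numbers. Of 643 log2 fold changes of the 36 genes under the alternatives, 617 kept their direction. The 26 that turned belonged to 13 genes, Rfc3 in 5 settings, Gins3 and Pola2 in 4, Prim2 in 3, Gins1 in 2, and Orc1, Cdc45, Gins2, Pold1, Rfc2, Lig1, Chaf1a and Chaf1b in 1 each. With array weights, 148 genes of the genome passed the adjusted threshold, 16 of the 36 genes had an unadjusted p under 0.05, and Chaf1b was at -0.069 on the log2 scale. Exo1 was called with these weights at 1.41, with an adjusted limma p of 0.0284 beside 0.218 to 0.975 under its other alternatives, but it passed the filter through the endFoxf1+/- libraries, and the weights were not run without the filter. Relative to endothelial markers, 1 gene of the genome passed the adjusted threshold, 1 of the 36 (Exo1) had an unadjusted p under 0.05, against 1.83% of all genes called higher, and 0 an adjusted one, and the median log2 fold change of the 36 was 1.43, since all values of H3 and H4 are raised by that scaling (0.96 over all genes). Without H3 and H4, 3 genes of the genome had an adjusted p under 0.05 and 18 of the 36 did not overlap, with fewer libraries to overlap. Leaving out 1 library at a time gave 0 to 1 genes with an adjusted p under 0.05 (1 without C1 and 1 without H3), 2 to 9 of the 36 with an unadjusted p under 0.05 (2 without C1, C2 or C3, against 2.06%, 1.51% and 1.72% of all genes called higher, and 9 without H4, against 3.59%), 6 to 15 without overlap (15 without H4, against 5.71%, and 6 without C2, H1 or H3, against 3.28%, 3.35% and 6.5%) and a median of 0.21 (without H3) to 0.47 (without H4). With 1 library left out, Pold1 ran from -0.024 (without H2) to 0.278 and Lig1 from -0.033 (without H3) to 0.419. The cause of these changes was not tested. The median of all genes was -0.17 as deposited, -0.05 after quantile normalization and -0.01 after median ratio scaling, and 35 of the 36 genes lay above it in each. Depth is unknown, and 4 libraries a group, of which H3 and H4 stand apart, limit what could be called.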
